A study of Saccharomyces cerevisiae with 255 samples.

Results

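The genes described here encode large-subunit ribosomal proteins of budding yeast, RPL1 to RPL30. They were chosen by gene name and not by a measured value, though with earlier results of these data known. They are 53 of the 6629 genes in the read tables. The set holds 23 paralog pairs, each an A copy and a B copy of 1 protein, and 7 single-copy genes, RPL3, RPL5, RPL10, RPL25, RPL28, RPL29 and RPL30. An intron lies in 33 of the 53 genes, and the genes are spread over 14 chromosomes.

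The study asked which parts of an RNA-binding protein (RBP) decide where it binds. Endogenous RBPs, whole or with regions removed, carried the poly(U) polymerase Pup2 at the C terminus, so that mRNAs near the protein gained a run of uridines (Us) at the 3' end, and sequencing of mRNA 3' ends then gave, for each gene and library, the number of reads with 0 to 16 Us. The files hold 255 libraries in 90 groups, 1 yeast strain design per group, with 93564 to 5768639 reads per library (median 1045022). The members took 9.20% to 16.2% of a library's reads (median 13.3%).

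All strains used here were BY4741 derivatives grown at exponential phase in synthetic complete medium with glucose. The controls were 11 libraries in which Puf3, Puf4 or Puf5 carried a catalytically inactive Pup2 (dPup2) and 8 libraries of C-Swat strains of the same proteins, which are reported as a second control. Intact fusions used in detail were Pub1 (4 libraries), Sro9 (2), Nsr1 (4), Rie1 (3), Slf1 (3), Puf4 (4), Puf5 (6), Mrn1 (3) and Puf3 (12). Intact Nab6 (3), Scp160, Bfr1, Pbp2, Yll032c, Ngr1, Tis11 and Gbp2 (2 each) were compared with dPup2 only. Single values are given for intact Nam7 and Dhh1. Pub1 was also fused after removal of an RNA-binding region (Pub1_Δ2 and Pub1_Δ4, 2 libraries each), of a disordered region (Pub1_ΔIDR_1 and Pub1_ΔIDR_3, 2 each, and Pub1_ΔIDR_2, 3), or as Pub1_ΔT1 (2). The labels name 1 further Pub1 truncation, Pub1_T2, whose libraries bear the construct names Trc6 (2) and Trc9 (2) and are kept apart here. Fusions without the RNA-binding domain were Puf4_ΔRBD (4), Puf5_ΔRBD (2), Mrn1_ΔRBD (2) and Puf3_ΔRBD (3). Other variants were Puf5_T3 (4) and Puf5_T4 to Puf5_T6, and Puf4_ΔIDR, Puf4_T3 and Puf4_T4. Values are also given for Puf3_T5, Puf3_T6, Puf3_T7_del513, Puf3_Δnon-RBD, Puf3_ΔIDR and Scp160_ΔIDR_1. Each fusion replaces the only copy of its gene, so the fused protein is also the protein the cell lives with. No source says that the libraries of a group came from separate cultures, so the p-values of tests between strains measure the spread between these libraries, which may be technical.

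Ribosomal protein mRNAs are among the most abundant and most actively translated mRNAs of a growing yeast cell. Genome duplication left many of these proteins with a pair of near-identical coding sequences whose untranslated ends have drifted apart. Pub1 is an abundant RBP with RNA recognition motifs that is known to bind U-rich RNA, Sro9 and its paralog Slf1 are La-motif proteins found with ribosomes, and Nsr1 is the yeast nucleolin. Puf3, Puf4 and Puf5 are Pumilio-family proteins that recognise sites beginning with UGUA in 3' ends of mRNAs.

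A read was counted as tagged when it carried 4 to 13 Us, the window the study uses. The tagged share of a gene is its tagged reads as a percent of all its reads in 1 library. In the dPup2 libraries the members together had a tagged share of 0.0141% ± 0.0055 (SD, n = 11) and in C-Swat 0.0208% ± 0.0139 (n = 8), and no dPup2 mean of a member passed 0.23%. That highest mean was RPL17A (YKL180W), with libraries from 0 to 0.866%. RPL15B (YMR121C) was the rarest member, with an mRNA level of 81.6 RPM (a reads-per-million value, scaled to the total of the library) in dPup2 and as few as 25 reads in an intact Pub1 library, and its shares carry the largest counting error. Ribosomal paralogs share sequence, and how reads with more than 1 match were placed is not given in the sources used here. The 25-base words from 300 bases before to 100 bases after the stop codon were searched in the genome. The percent also found at another position was highest for RPL1 (73.4%), RPL11 (60.9%), RPL7 (59.3%) and RPL14 (55.1%), then RPL2 (44.7%). Values for the copies of these pairs are uncertain. The study counted reads around the transcription termination site, so these percents do not measure the share of reads in doubt.

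The sequences that follow lie just after the stop codon, in the direction of the mRNA, with T standing for U. They are from the RefSeq R64 genome, the build of the submitters' processing notes. The first set is the T-richest stretch of 30 bases within 150 bases of the stop codon in both copies of RPL27, RPL11 and RPL2, the pairs whose copies differed most in Pub1. Capitals mark the longest run of T. RPL27A is at chrVIII:127527-127556 (plus strand), RPL27B at chrIV:1402584-1402613 (plus), RPL11A at chrXVI:731164-731193 (minus), RPL11B at chrVII:648239-648268 (minus), RPL2A at chrVI:220366-220395 (minus) and RPL2B at chrIX:317933-317962 (plus).
RPL27A: attattagtaatatcaacatatgtataTTT
RPL27B: taacTTTTTTctgtgtactattattatttt
RPL11A: tttatatactcatatctatgTTTTTTTTgt
RPL11B: gttgtgaacacTTTgtcaatgtatttagtt
RPL2A: tttctaaattagaTTTTgttctgtagtaat
RPL2B: tcTTTTTaattttggtttcttccttctgtc
In each of these pairs the copy with the higher Pub1 share, RPL27B, RPL11A and RPL2B, has 19 T in its stretch, and the other copy has 14, 14 and 16. The pairs were picked for their difference, so this is a description of 3 pairs. Over all 53 members the tagged share in Pub1 and the percent of T in the 150 bases had a Pearson r of 0.18 and a Spearman rho of 0.13, and the percent of T had a median of 40% in members and 35.3% over 5938 genes. Members with TTTTTTTT within 300 bases of the stop codon, 14 of 53 (26.4%, against 22.2% of all genes), had a median Pub1 share of 30.3%, and the 39 without had 29.2%.

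The second set holds the pattern TGTANANTA, one form of the Puf4 site, searched on the mRNA strand within 300 bases after the stop codon. It was found in 5 of 53 members (9.43%) and in 8.66% of the 5938 genes, and capitals mark the first match. The windows are at chrXIV:500289-500318 for RPL9B (plus strand), chrXIV:63492-63521 for RPL18B (minus), chrXVI:174720-174749 for RPL7B (plus), chrVI:64210-64239 for RPL22B (minus) and chrVI:220477-220506 for RPL2A (minus).
RPL9B: cgcttaaataTGTACATTAttcctactttt
RPL18B: cttgtttcagTGTATATTAggttgggaaag
RPL7B: ataatctcaaTGTATAATAaataatatttc
RPL22B: gacactcacaTGTATATTAatttataaaat
RPL2A: attaTGTAAAATAgtcattctttaagcaag
RPL18B holds 2 matches and the others 1. Neither RPL9A nor RPL7A, paralogs of RPL9B and RPL7B, holds one in this window.

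Pub1 tagged every one of these mRNAs. Pooled over the 53 members, the tagged share was 26.1% in the lowest and 33.7% in the highest of the 4 Pub1 libraries (30.3% ± 3.2, SD), against 22.7% over all genes. All 53 members had a higher share than in dPup2 by edgeR's quasi-likelihood test with Benjamini-Hochberg adjustment over all genes tested. The background of that count was 99.9% of the genes tested and 33.9% of all genes with at least 16 RPM. A gene enters this test only with at least 10 tagged reads, which nearly all came from Pub1, so the count says little by itself. With 4 to 16 Us counted as tagged, RPL27A lost its call (log2 0.55, edgeR adjusted p 0.158).

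The members sat with other abundant mRNAs. The median share over members was 29.2%, over RPL31 to RPL43 28.0% (23 genes), over the small-subunit RPS genes 33.4% (56 genes), over the stalk proteins RPP0 to RPP2 32.1% (6 genes) and over 178 non-ribosomal genes with at least 500 RPM 26.4%. The median over all 4275 expressed genes was 2.78%. The lists of RPL31 to RPL43 and RPS passed the same test in 23 of 23 and 56 of 56 genes. By the study's own measure, the mean number of Us per read with a threshold of 0.15, 52 of 53 members counted as Pub1 targets, the exception being RPL27A (0.138), and the next lowest was RPL15B (0.506).

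**Figure D1:**
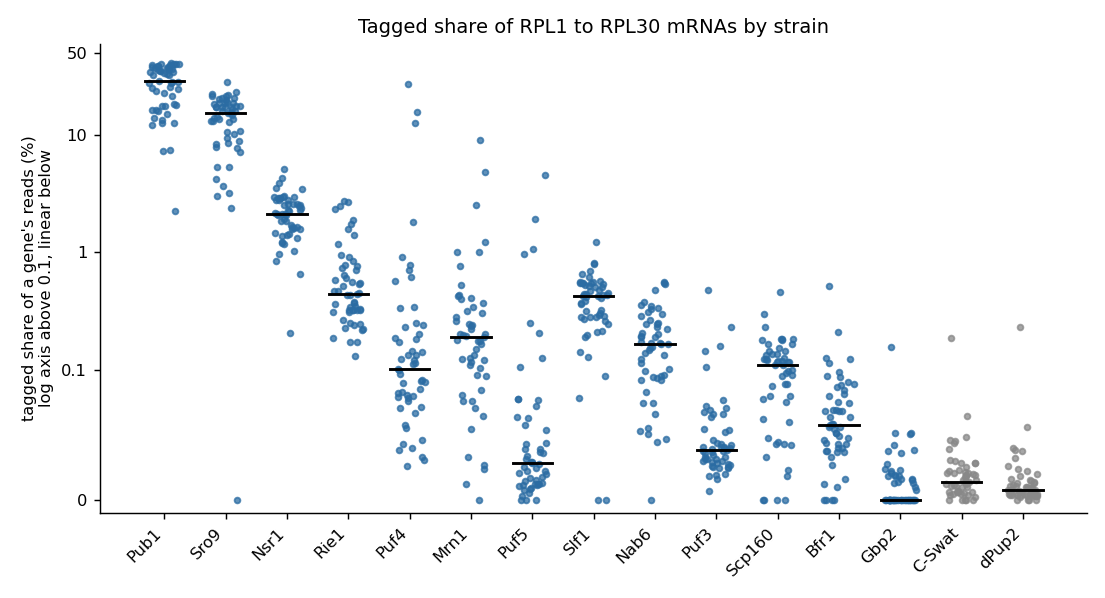
Tagged share (%) of each of the 53 mRNAs, 1 point per gene as the mean over the libraries of a strain, with the median as a black line; the vertical axis is logarithmic above 0.1 and linear below. Pub1 has a median of 29.2%, Sro9 15.3% and Nsr1 2.14%, while dPup2 and C-Swat (grey) stay near 0, and single points of Puf4, Puf5 and Mrn1 stand far above the rest of their column.

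The highest shares in Pub1 were those of RPL17A, 41.1% ± 3.8 (SD, n = 4), RPL13A, 40.7% ± 3.7, RPL24A, 40.6% ± 4.4, RPL27B, 40.2% ± 3.0, and RPL26A, 40.1% ± 3.4. The ranges of these 5 over the 4 libraries overlapped. The lowest were RPL27A (YHR010W), 2.25% ± 0.80, RPL15B, 7.31% ± 3.15, RPL11B (YGR085C), 7.41% ± 1.06, RPL3 (YOR063W), 12.2% ± 1.6, RPL8A (YHL033C), 12.6% ± 4.6, and RPL2A (YFR031C-A), 12.7% ± 2.1. RPL27A stood apart: its 4 libraries gave 1.28%, 1.91%, 2.83% and 2.98%, all below the lowest library of any other member. The lowest Pearson r between any 2 Pub1 libraries over the 53 genes was 0.956, a description of libraries that share a strain and a gene list.

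The single-copy members, whose reads cannot be mistaken for those of a paralog, spanned the range. RPL3, which lies near the peptidyl transferase centre, RPL5, the 5S rRNA-binding protein (14.1% ± 1.9), and RPL10, which joins late in the cytoplasm (16.2% ± 3.4), were low. RPL25, the docking site for the signal recognition particle (39.6% ± 3.7), RPL28 (34.0% ± 5.0) and RPL29 (32.7% ± 4.0) were high, and RPL30, which represses its own splicing, lay between (25.8% ± 4.2). Every library of RPL25, RPL28 and RPL29 was above every library of RPL3, RPL5 and RPL10. In dPup2, RPL25 had 5037 RPM and RPL3 4469 RPM. Over the 53 members the Pub1 share and the log2 RPM in dPup2 had a Pearson r of 0.27 and a Spearman rho of 0.13.

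Copies of the same protein often differed in Pub1 share. A minus B was tested over the means of the 9 Pub1 strains by an exact sign-flip permutation test (two-sided, smallest possible p 0.00391). The test takes strains and not libraries as units, for pairs with at least 100 reads, which left out RPL15. These strains are intact Pub1 and deletions of the same fusion, not independent replicates. They include Trc9, where the median member share was 0.0449%, so which copy is higher there rests on few tagged reads. The p-values therefore describe only how alike a difference was across these strains. Of 22 member pairs 13 passed an adjusted p of 0.05 over 60 yeast ribosomal protein pairs tested, where the background was 56.7%. In intact Pub1 the median absolute difference was 7.56 percentage points over the 22 pairs and 12.9 points over the 38 other pairs. It exceeded 10 points in 8 member pairs and stayed under 5 in another 8, and the A copy was the higher in 12 of 22.

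RPL27 had the largest gap. RPL27B (YDR471W) gave 36.2%, 43.3%, 41.5% and 39.9% in the 4 Pub1 libraries, against 1.28%, 1.91%, 2.83% and 2.98% for RPL27A. B was above A in all 9 strains, with a mean A minus B of -37.97 ± 2.7 points (SD, n = 4) in intact Pub1 and an adjusted p of 0.013 by the exact permutation test. Few words of this pair recur elsewhere (3.46%).

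RPL11, which binds 5S rRNA together with RPL5, was next. RPL11A (YPR102C) gave 30.5%, 43.1%, 37.1% and 35.6%, and RPL11B 7.09%, 6.69%, 6.88% and 8.98%. A was higher in every library and in 9 of 9 strains (29.2 ± 5.6 points, adjusted p 0.013, exact permutation test), in a pair with many shared words. RPL24A (YGL031C), from a pair whose protein bridges the subunits, gave 34.9%, 45.4%, 42.2% and 39.97% and RPL24B 15.01%, 20.6%, 18.7% and 16.2%, again with A higher in 9 of 9 strains (23.0 ± 2.2 points, same p). RPL8 went the other way, with A at 6.62%, 15.7%, 11.5% and 16.7% and B at 29.4%, 38.5%, 32.8% and 33.7% (-21.0 ± 2.7 points, A higher in 0 of 9 strains, same p). RPL7A was above RPL7B in 9 of 9 strains (17.4 ± 2.2 points).

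RPL2, a core protein near the peptidyl transferase centre, was less uniform. RPL2A gave 9.77%, 12.8%, 14.6% and 13.5% and RPL2B (YIL018W) 34.8%, 40.3%, 37.0% and 36.9%, a difference of -24.6 ± 2.2 points, but A was the higher copy in 2 of 9 strains (adjusted p 0.0293, exact permutation test). These strains were Trc6 and Trc9, where RPL2A kept 27.5% and 0.799% of its intact Pub1 share. RPL2B kept 8.97% and 0.0892%, so both copies were tagged little there. At the other end RPL1, RPL9, RPL16 and RPL20 differed by -0.50 to 0.27 points in intact Pub1, less than their spread between libraries. RPL13A and RPL13B lay within 1.70 ± 2.21 points in intact Pub1, yet A was higher in all 9 strain means.

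**Figure D2:**
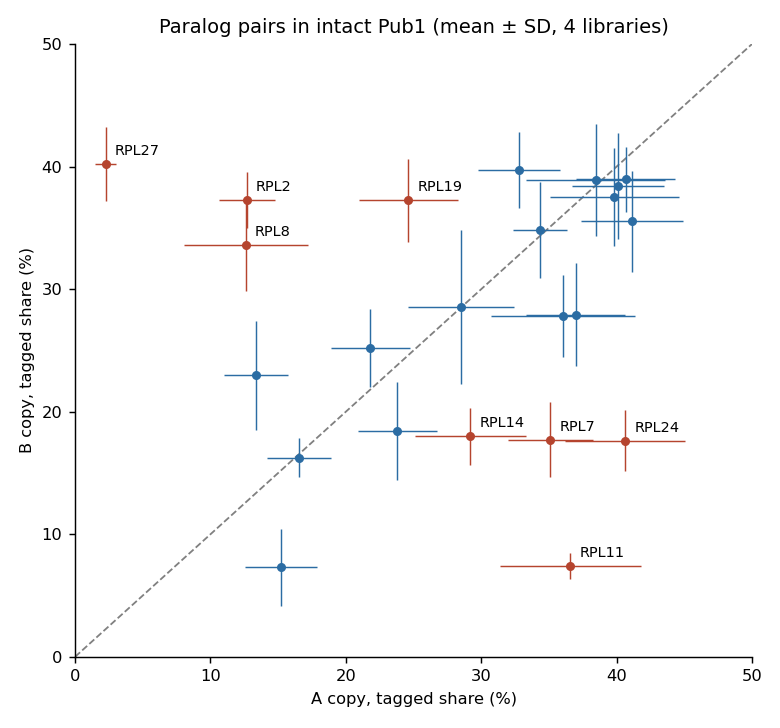
Tagged share (%) of the B copy against the A copy of the 23 pairs in intact Pub1, mean with SD over 4 libraries, and a dashed line of equality. The named pairs differ by more than 10 percentage points, and RPL27 (2.25% against 40.2%) lies farthest from the line.

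Sro9 also tagged these mRNAs, at a lower share than Pub1. Its pooled member share was 13.6% and 16.5% in the 2 libraries (all genes 11.1% on average), the median over members was 15.3%, and 52 of 53 members passed the test against dPup2 (background 99.6% of genes tested, 16.5% of genes with at least 16 RPM). RPL15B, with 0 of 204 reads tagged, which allows a share of up to 1.47%, was not tested. RPL24A was highest with 22.9% and 34.2%, followed by RPL17B with 19.3% and 27.4%. Set against Pub1, 48 members were lower and 2 were higher in Sro9 (background of genes called in either direction 72.9%). Replicate 1 had most of the Sro9 reads and replicate 2 only 93564, and without replicate 1 the count of members called fell to 27.

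The 2 members that were higher in Sro9 than in Pub1 were copies that Pub1 tagged little. RPL27A had 9.98% and 8.97% in Sro9, both above all 4 Pub1 libraries (log2 difference 2.33 ± 0.23 SE, edgeR adjusted p 6.49e-23). RPL2A had 16.9% and 23.8%, also above every Pub1 library (log2 0.57 ± 0.20, adjusted p 0.00619), but with 4 to 16 Us counted as tagged the RPL2A difference was 0.086 (adjusted p 0.801). RPL24B, with 13.97% and 21.1% in Sro9, and RPL11B, with 5.26% and 9.04%, overlapped their Pub1 values, and neither difference passed the test (adjusted p 0.387 and 0.203). Over the 53 members the mean shares in Pub1 and Sro9 had a Pearson r of 0.75 and a Spearman rho of 0.75.

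Nsr1 tagged the members at a lower level. The pooled share was 2.49% ± 0.76 (SD, n = 4; all genes 1.82%), the median over members 2.14%, and 21 members had a modification level over 0.15. Against dPup2, 50 members were higher (background 99.4% of genes tested, 8.15% of genes with at least 16 RPM). RPL26B was highest, from 2.85% to 7.33%, then RPL23B, from 3.58% to 4.82%. Against Pub1, 52 members were lower and none higher (background 85.3%). RPL27A was the exception, with 0.965%, 1.52%, 2.24% and 1.84% in Nsr1. These values overlapped those of its Pub1 libraries, but the lowest lay below every Pub1 library (edgeR adjusted p 0.135, in a fit that did not pair libraries).

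The other intact fusions tagged these mRNAs less. Members called higher than dPup2 are given out of the members tested, with the background of genes tested. They were 49 of 49 in Rie1 (99.8%), 35 of 36 in Slf1 (95.5%) and 32 of 36 in Nab6 (95.5%). In Scp160 22 of 26 were called (91.5%), in Bfr1 13 of 20 (88.2%) and in Puf3 26 of 42 (84.9%). In Pbp2 the count was 11 of 19 (70.6%), in Yll032c 5 of 12 (61.7%) and in Ngr1 1 of 9 (50.7%). In Tis11 it was 1 of 8 (11.1%) and in Gbp2 0 of 8 (12.2%). For Gbp2, 0 were also called by DESeq2 and 0 members were higher at an unadjusted p under 0.05. Members that were not tested had fewer than 10 tagged reads in the comparison. The Slf1 count rests on 1 library: RPL26A, the highest member there, had 0.103%, 0.0526% and 3.52%, and without replicate 3 the count fell to 13. In Rie1 the highest members were RPL11A, with 0.974%, 4.73% and 2.59%, and RPL12A, with 1.52%, 3.33% and 3.16%, where RPL11B and RPL12B averaged 0.70% and 0.44%. Without Rie1 replicate 3 the count was 26. Dropping a library also moved the counts of Scp160 (4 without replicate 4), Bfr1 (8 and 2), Nab6 (19 without replicate 1), Puf3 (16 without replicate C1_11), Yll032c (0 and 0), Pbp2 (5 and 7), Ngr1 (0 without replicate 2) and Tis11 (0 without replicate 1). When reads with 4 to 16 Us were counted as tagged, no member was called in Nsr1, Rie1, Slf1, Nab6, Scp160, Bfr1, Puf3, Puf5, Yll032c, Pbp2, Ngr1 or Tis11, 3 were in Puf4 and 1 in Mrn1. Reads with 16 Us alone made up 2.94% to 9.70% of the members' reads in dPup2.

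Removing regions of Pub1 lowered the tagging of nearly all members in every variant but Pub1_ΔT1, and not evenly. All of these comparisons share the 4 intact Pub1 libraries. In Pub1_Δ2 50 members were lower (background 57.2%) and in Pub1_Δ4 50 (80.6%). The counts were 53 in Pub1_ΔIDR_1 (86.8%), 53 in Pub1_ΔIDR_2 (98.3%) and 51 in Pub1_ΔIDR_3 (56.8%). They were 52 in Trc6 (88.1%), 53 in Trc9 (99.0%) and 21 in Pub1_ΔT1 (20.4%). As a share of the intact value, the median member kept 35.9% in Δ2, 27.9% in Δ4, 19.1% in ΔIDR_3, 8.56% in ΔIDR_1, 7.22% in Trc6, 1.64% in ΔIDR_2 and 0.165% in Trc9, and 83.2% in ΔT1. The median log2 difference from intact Pub1 was -1.45 over members and -1.40 over all genes tested in Δ2, -1.85 and -2.63 in Δ4, and -0.27 and -0.53 in ΔT1. The pooled member share in Trc9 was 0.0415% and 0.0659%, and in Trc6 2.75% and 2.77%, so the constructs that the labels call Pub1_T2 did not overlap.

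RPL27A and RPL2A were higher in Δ2 than in intact Pub1. RPL27A rose from 1.28% to 2.98% in intact Pub1 to 8.53% and 8.22% in Δ2 (log2 2.12 ± 0.20 SE, edgeR adjusted p 2.78e-26). RPL2A gave 18.1% and 15.7% against 9.77% to 14.6% (log2 0.45 ± 0.15, adjusted p 0.0047), but with 4 to 16 Us counted as tagged the RPL2A difference was -0.0703 (adjusted p 0.646), so this call depends on the U window. The comparison with Sro9 uses the same Pub1 libraries. RPL7B (YPL198W) was not called in Δ2, with 22.0% and 20.7% against 14.1% to 21.0% in intact Pub1 (adjusted p 0.153). RPL10 fell most, from a mean of 16.2% to 1.06% and 1.09% (log2 -3.87 ± 0.18).

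In Δ4, RPL6B and RPL18B were among the 3 members that were not called. RPL6B (YLR448W) gave 26.8% and 27.3% against 20.6% to 27.6% in intact Pub1 (adjusted p 0.505) and RPL18B 33.0% on average against 37.5% (adjusted p 0.306). RPL6B was not called in ΔIDR_3 either, at 27.6% and 26.1% (adjusted p 0.696). RPL12B, in turn, went from 27.8% to 2.26% in Δ4 (log2 -3.63 ± 0.21, adjusted p 9.16e-63) and RPL27A to 0.136% and 0.324% (log2 -3.14 ± 0.45, adjusted p 1.68e-11).

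Set directly against each other, the RNA-binding region deletions of Pub1 split the members. The pooled member share was alike, 11.7% in Δ2 and 11.5% in Δ4, but 24 members were higher in Δ2 and 20 higher in Δ4 among 52 tested by edgeR (background of genes called in either direction 44.6%). With 4 to 16 Us counted as tagged, 26 differed in place of 44. The median log2 difference, Δ2 minus Δ4, was 0.41 over the members tested and 1.34 over all genes tested. The same fit called 30 and 20 of 56 RPS genes and 14 and 7 of 23 genes from RPL31 to RPL43. Over the 53 members the shares in Δ2 and Δ4 had a Pearson r of 0.24 and a Spearman rho of 0.32, where Pub1 and Δ2 had 0.54 and 0.55 and Pub1 and Δ4 0.68 and 0.79.

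RPL27A differed most, with 8.53% and 8.22% in Δ2 against 0.136% and 0.324% in Δ4 (log2 5.27 ± 0.31, adjusted p 1.11e-59). RPL7B followed with 22.0% and 20.7% against 2.03% and 2.24% (log2 3.33 ± 0.26, adjusted p 5.21e-36). RPL12B, RPL21B and RPL6A were also higher in Δ2, by log2 3.23 ± 0.17, 2.97 ± 0.15 and 2.86 ± 0.19. In the other direction, RPL6B had 5.36% and 4.31% in Δ2 against 26.8% and 27.3% in Δ4 (log2 -2.49 ± 0.16, adjusted p 4.26e-52). RPL11A had 6.96% and 5.47% against 26.4% and 30.6% (log2 -2.20 ± 0.13, adjusted p 6.28e-61), and RPL13B was lower by log2 -2.12 ± 0.11. In none of these did the libraries of the strains overlap.

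Paralogs could move in opposite directions between these strains. RPL6A was 7.24-fold higher in Δ2 and RPL6B 5.62-fold higher in Δ4. RPL12B was 9.40-fold higher in Δ2 while RPL12A (YEL054C), with 6.06% and 6.32% against 12.7% and 17.2%, was 2.38-fold higher in Δ4. RPL27A was higher in Δ2 and RPL27B, with 9.88% and 9.87% against 20.9% and 21.4%, was 2.14-fold higher in Δ4 (adjusted p 4.23e-15). As a result the RPL27 gap of -37.97 points in intact Pub1 was -20.9 points in Δ4 and -1.51 points in Δ2. These genes were named after their values were seen.

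**Figure D3:**
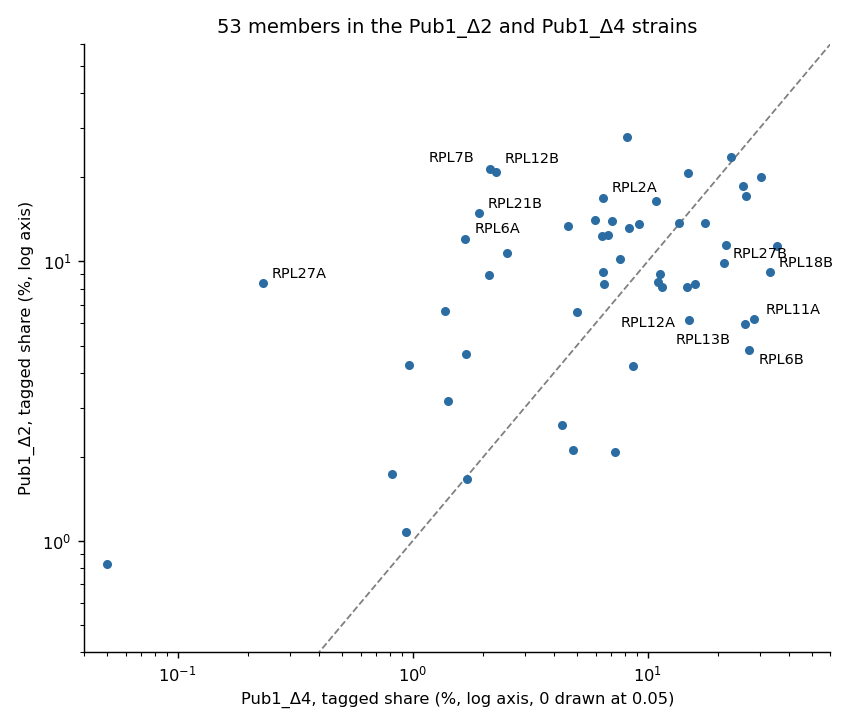
Mean tagged share (%) of the 53 mRNAs in Pub1_Δ2 (vertical) against Pub1_Δ4 (horizontal), 2 libraries each, both axes logarithmic, with a dashed line of equality. RPL27A, RPL7B, RPL12B, RPL21B and RPL6A lie above the line, RPL6B, RPL11A, RPL13B and RPL18B below it, and the A and B copies of RPL6, RPL12 and RPL27 fall on opposite sides.

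Pub1_ΔT1 was close to intact Pub1 and went both ways. Against the 21 lower members, 4 were higher, among them RPL6B (35.9% and 39.5%, against 20.6% to 27.6%, log2 0.59 ± 0.15, adjusted p 0.000658), RPL2B (log2 0.43 ± 0.13, adjusted p 0.00525) and RPL27B (log2 0.35 ± 0.13, adjusted p 0.0353). With 4 to 16 Us counted as tagged the RPL27B difference was -0.0593 (adjusted p 0.665) and 36 members were lower. RPL24B was among the lower, with 9.64% and 7.75% against 15.01% to 20.6% (log2 -1.04 ± 0.17, adjusted p 7.44e-08). Without Pub1_ΔT1 replicate C2_1 the lower members numbered 12.

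The length of the added U run also differed between strains. The commonest tagged length was 6 Us in intact Pub1, and the mean tagged length over member reads was 7.50 Us in Pub1, 6.37 in Sro9, 6.36 in Δ4, 5.76 in Nsr1, 5.71 in Δ2 and 5.63 in Trc6. Reads with 16 Us, the longest class in the files, made up 13.02% to 16.4% of member reads in Pub1, 2.94% to 9.70% in dPup2 and 1.10% to 11.1% in C-Swat, and they reached 14.3% in a library of the weakly tagging Dhh1 fusion.

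Puf4 tagged 3 members strongly. RPL9B (YNL067W) had 29.4%, 30.1%, 25.4% and 24.98% in the 4 Puf4 libraries, rank 3 of 4323 expressed genes, against at most 0.0466% in a dPup2 library (edgeR adjusted p 4.35e-14). RPL18B (YNL301C) had 18.5%, 17.1%, 14.4% and 13.03% (rank 32, adjusted p 1.78e-13), and RPL7B had 16.8%, 17.2%, 8.81% and 7.78% (rank 49, adjusted p 3.37e-07). The paralogs RPL9A and RPL7A had 0.0532% to 0.567% and 0.364% to 1.01%. RPL9B, RPL18B and RPL7B were the members with TGTANANTA shown above whose shares were high. RPL22B, with the same letters TGTATATTA as RPL18B, had 0.33% to 1.44%, and RPL2A had 0 to 0.328%. In all, 40 of 53 members were called in Puf4 (background 93.6% of genes tested, 8.36% of genes with at least 16 RPM), mostly at shares under 1%, and without Puf4 replicate C1_5 the count was 23.

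Without the RNA-binding domain of Puf4 the tagging of these 3 mRNAs was at or near 0. In Puf4_ΔRBD, RPL9B gave 0.0773%, 0, 0 and 0, RPL18B 0 of 5389 reads over 4 libraries, which allows up to 0.0557%, and RPL7B 0 of 2591 reads, which allows up to 0.116%. Against intact Puf4, 30 of 42 members tested were lower and none higher (background 81.5%). The edgeR adjusted p for RPL9B was 1.13e-07. The count was 19 without Puf4 replicate C1_5 and 3 with 4 to 16 Us counted as tagged. This comparison and those of Puf5 and Mrn1 strains below were added after the values were seen. In the libraries labelled Puf4_ΔIDR, whose deletion no value in the files checks, RPL9B had 28.5% and 27.9%, RPL18B 20.1% and 17.95%, and RPL7B 16.3% and 14.1%. The study reports that deleting a disordered stretch in the middle of Puf4 abolished its binding signal. The labels do not tell whether these libraries hold that construct. In Puf4_T3 RPL18B reached 24.4% to 29.6%, and in Puf4_T4 RPL9B was at 0 and 0.324%.

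RPL18B was also the member most tagged in several Puf3 truncations. Intact Puf3 gave a median of 0.209% over 12 libraries, with a lowest value of 0 and a highest of 3.14%. Puf3_T7_del513 gave 5.49%, 11.5% and 10.2%, Puf3_Δnon-RBD 3.10%, 9.65% and 10.3%, Puf3_T6 4.27% and 11.8%, and Puf3_ΔIDR 2.33% and 2.24%. In Puf3_ΔRBD none of 2153 reads was tagged, which allows up to 0.139%. The difference between these strains and intact Puf3 was not tested, and the strains were named after their values were seen.

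Puf5 tagged a different set. RPL28 (YGL103W) had the highest share, with a lowest library of 2.45% and a highest of 6.36% among 6 (rank 19 of 4408 expressed genes, edgeR adjusted p 6.52e-21 against dPup2). RPL26B (YGR034W) followed with 0.845% to 3.17%, RPL27B with 0.419% to 1.72% and RPL16A (YIL133C) with 0.401% to 1.49%. The paralogs RPL26A, RPL27A and RPL16B did not exceed 0.192% in any of the 6 libraries. In all, 15 members were called (background 68.3% of genes tested, 2.59% of genes with at least 16 RPM). The TGTA tetramers nearest the stop codon of RPL28 (chrVII:311938-311967, plus strand) and RPL26B (chrVII:556726-556755, plus), the most tagged members, are in capitals here.
RPL28: aaaaactctaTGTAttttccaataaattat
RPL26B: gtttcttttaTGTAtattttttatcaattt
A tetramer this short is frequent, and its presence is only a description. A longer pattern, TGTA and then TA with any 4 bases between them, was also searched within 300 bases after the stop codon. It was found in 17 of 53 members (32.1%) and in 25.3% of the 5938 genes. RPL28, RPL26B and RPL16A did not hold it. RPL27B did, and so did its paralog RPL27A, which Puf5 tagged little.

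The truncation Puf5_T3 tagged these 4 mRNAs more than intact Puf5. In Puf5_T3 RPL28 had 22.7%, 14.7%, 14.7% and 22.9%, above all 6 libraries of intact Puf5 (log2 2.05 ± 0.34 SE, edgeR adjusted p 3.8e-07). RPL26B had 13.7%, 7.19%, 7.99% and 14.98% (log2 2.50 ± 0.34), RPL27B 7.37%, 3.08%, 4.44% and 8.46% (log2 2.46 ± 0.36) and RPL16A 7.48%, 4.00%, 4.62% and 8.12% (log2 2.64 ± 0.36). In total 34 of 44 members tested were higher and none lower (background 56.0%). The count was 22 without Puf5_T3 replicate C1_3 and 1 with 4 to 16 Us counted as tagged. RPL28 was also high in Puf5_T4 (14.4% and 16.2%), Puf5_T5 (10.8% to 19.2%) and Puf5_T6 (7.67% to 14.9%). In Puf5_ΔRBD it had 0 of 15376 reads tagged, which allows up to 0.0195%. There, 8 of 19 members tested were lower than in intact Puf5 (background 68.0%). The count was 4 without Puf5_ΔRBD replicate C1_2 and 0 with 4 to 16 Us counted as tagged.

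Mrn1 tagged another set. RPL12B (YDR418W), which encodes a protein at the base of the ribosomal stalk, had 10.1%, 9.41% and 8% (rank 70 of 4043 expressed genes, edgeR adjusted p 7.94e-16) and RPL13A 4.47%, 4.54% and 5.66%. RPL12A, with 0.489% to 1.27%, and RPL13B, with 0.0485% to 0.608%, lay below every library of their paralogs. In all, 33 members were called (background 96.4% of genes tested, 6.09% of genes with at least 16 RPM). In Mrn1_ΔRBD RPL12B had 0 of 3857 reads tagged, which allows up to 0.0778%, and RPL13A 0.181% and 0.103%. Of the 32 members tested, 16 were lower there than in intact Mrn1 (background 58.8%). The count was 7 without Mrn1_ΔRBD replicate C2_1 and 1 with 4 to 16 Us counted as tagged.

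**Figure D4:**
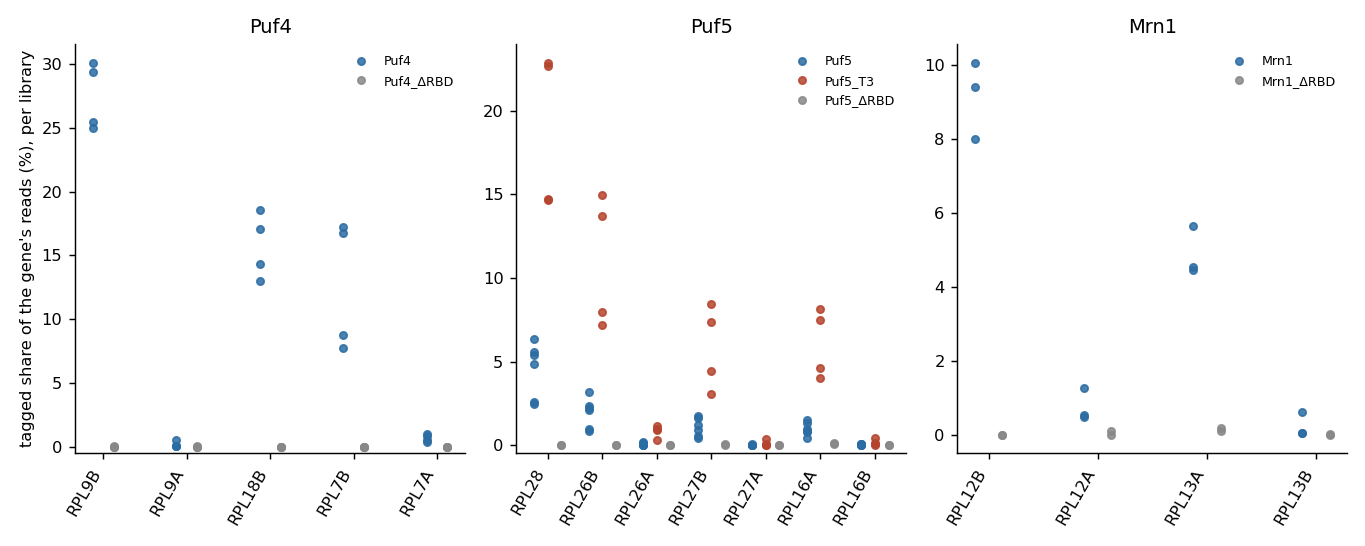
Tagged share (%) per library of the members most tagged by Puf4, Puf5 and Mrn1, with the paralogs of all but RPL28 and RPL18B, in the intact fusion (blue), in Puf5_T3 (red) and without the RNA-binding domain (grey). RPL9B reaches 30.1% in Puf4, RPL28 22.9% in Puf5_T3 and RPL12B 10.1% in Mrn1, and the grey points lie at or near 0.

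Few members were called for a change in mRNA level after adjustment. At an unadjusted edgeR p under 0.05 there were more, 14 in Pub1 and 19 in Nsr1 against dPup2. Against intact Pub1 they were 15 in Pub1_Δ2, 14 in Pub1_Δ4 and 17 in Pub1_ΔIDR_2. In Pub1 against dPup2, 2 members were higher and 3 lower out of 53 by edgeR on all reads (background of genes called in either direction 5.66%). RPL8A had 495, 450, 426 and 422 RPM in Pub1 against a dPup2 range of 903 to 1414 RPM (median 1066), without overlap (log2 -1.33 ± 0.14, adjusted p 2.11e-05). RPL9B had 538 to 592 RPM against 735 to 1258 RPM (log2 -0.68 ± 0.15, adjusted p 0.00872), and RPL27A 1312 to 1622 RPM against 1720 to 3562 RPM (log2 -0.83 ± 0.23, adjusted p 0.0381). Higher were RPL13A (1588 to 1884 RPM against 853 to 1576 RPM, log2 0.71 ± 0.19, adjusted p 0.0295) and RPL26A (log2 0.59 ± 0.16, adjusted p 0.0341). Leaving out 1 library gave 1 to 8 calls, the extremes being without Pub1 replicate 2 and without dPup2 replicate C1_5 of Puf3.

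RPL8A was low in Nsr1 too, with 352 to 477 RPM (log2 -1.55 ± 0.16, adjusted p 1.51e-05), among 6 lower and 0 higher members (background 4.29%, 2 without Nsr1 replicate 2, 3 or 4). Pub1 and Nsr1 were compared with the same dPup2 libraries. In Sro9 no member was called (background 0.0926%), with 3 at an unadjusted p under 0.05 and 0 by DESeq2. Among the 90 groups RPL8A was lowest in Scp160_ΔIDR_1 (401 RPM), Nsr1 (406 RPM) and Pub1 (448 RPM), and Pub1_ΔT1 had 520 and 566 RPM. A lower RPM cannot tell a lower transcript level from reads that were lost or placed elsewhere, and this was not tested.

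Relative to intact Pub1, RPL8A was higher in Pub1_Δ2 (882 and 890 RPM, log2 0.88 ± 0.15, adjusted p 0.00414), in Pub1_Δ4 (1064 and 999 RPM, log2 1.33 ± 0.17, adjusted p 7.74e-05) and in Pub1_ΔIDR_2 (log2 1.07 ± 0.17, adjusted p 0.00427). RPL27B was lower in Δ2 (log2 -0.81 ± 0.17) and ΔIDR_2 (log2 -0.98 ± 0.18), RPL26A in Δ2 (log2 -0.71 ± 0.16) and RPL13A in ΔIDR_2 (log2 -0.96 ± 0.18), while RPL22A was higher in Δ4 (log2 0.70 ± 0.15). The counts were 1 higher and 4 lower in Δ2 (background 6.54%), 7 higher and 0 lower in Δ4 (18.9%), and 1 higher and 4 lower in ΔIDR_2 (6.35%). They rest on few libraries: without either Pub1_Δ2 library no member passed, and without either Pub1_Δ4 library 1 did.

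**Figure D5:**
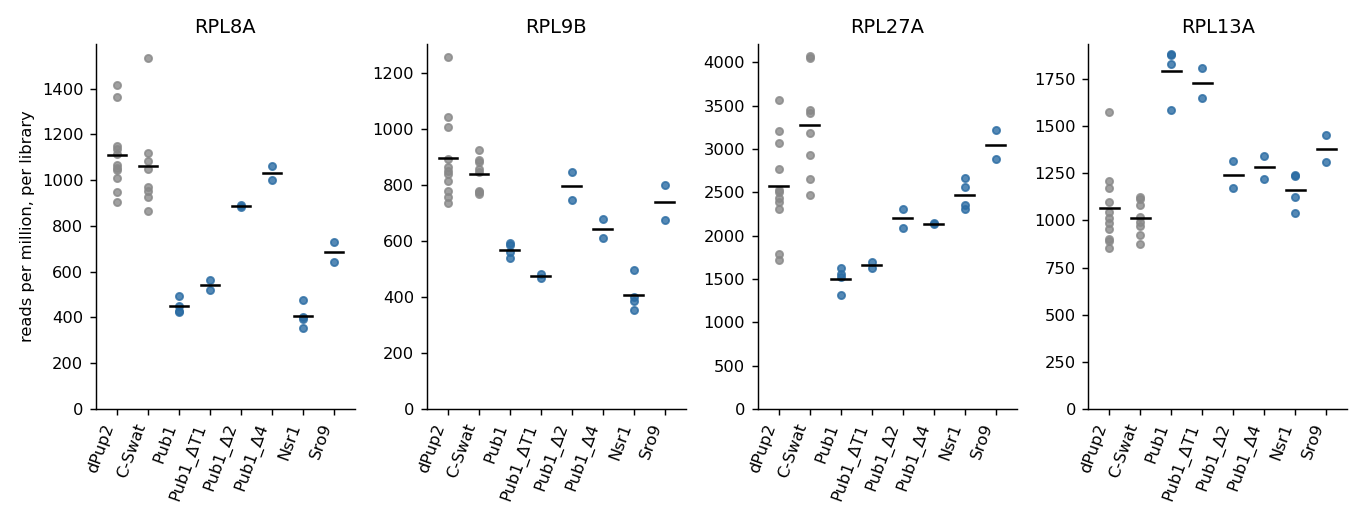
mRNA level (RPM) of RPL8A, RPL9B, RPL27A and RPL13A in each library of the controls (grey) and of 6 strains (blue), with the mean as a black line; all axes start at 0. RPL8A lies at 422 to 495 in Pub1 and 352 to 477 in Nsr1, below all dPup2 libraries, and at 882 to 890 in Pub1_Δ2.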

How the data were processed

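The deposited tables hold read counts: for each of 6629 genes, the number of reads with 0 to 16 added Us in 1 library. Per the submitters' processing notes the authors used bcl2fastq, cutadapt, Bowtie2, bedtools and genome build R64, with versions not given in the sources used here. The study's RNA adapter carried a molecular identifier. Whether identifiers were used to collapse copies of a read is not given, nor is the placing of reads with more than 1 match. The deposited counts were not normalised.

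Tagged reads (4 to 13 Us) were compared between strains with edgeR 4.0.16 in R 4.3.3 (quasi-likelihood test, with the log of a gene's total reads per library as offset, 0.5 where it had none). A gene entered with 10 or more tagged reads summed over both groups and 16 RPM on average, and p-values were adjusted over all of them (Benjamini-Hochberg, threshold 0.05). The SE is that of the log2 difference. mRNA levels were tested on all reads with edgeR's TMM scaling and its filter on low counts. The modification level is the number of Us on reads with 4 to 13 Us divided by all reads of the gene. Tests were checked on simulated data. DESeq2 1.42.0, other scalings, filters, control sets, U windows and fits without each library in turn were alternatives. Python 3.11.15 with numpy 2.4.6, scipy 1.17.1 and matplotlib 3.10.9 served for shares, the paralog test and figures. Depth ran from 93564 to 5768639 reads per library. Limits given for a count of 0 (3 counts) cover counting error only.

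Members and lists were chosen with earlier results of these data known. The genes named were the 6 highest and 6 lowest in intact Pub1, the 5 pairs with the largest difference, the 7 single-copy members, the 2 called members of highest share for each other RBP, and the 2 called members of largest fold in each direction for a level comparison. A gene that these rules name is not reported here. Others were named after their values were seen, and the comparisons of Puf4_ΔRBD, Puf5_ΔRBD, Puf5_T3 and Mrn1_ΔRBD and the alternative without reads of 14 to 16 Us were added then. Pub1 and Nsr1 share replicate numbers 1 to 4 in the labels. Same-numbered libraries deviated together in log2 RPM over all genes with at least 16 RPM (r 0.265 to 0.560). The numbers were therefore taken as pairing these strains. With the replicate block the fit called 52 members lower in Nsr1, as did the one without it.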

Additional observations from a re-analysis of the deposited data

Results flagged for a closer look

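In strains with 4 or more libraries, 40 sets of values were tested, each the share of 1 gene or of all members in 1 strain, and 3 held a library far from the others, where chance gives about 1 in 20. RPL15B had 12% in 1 intact Pub1 library against 5.69%, 5.47% and 6.06% in the others, on as few as 25 reads. RPL25 had 34.1% in 1 Pub1 library against 42.2%, 40.9% and 41.0% in the rest. RPL17A had 4.204% in 1 Nsr1 library against 1.74%, 2.13% and 2.05%.

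Deleting different RNA-binding regions of Pub1 had different effects on 4 of the members described. On the log2 scale, Δ2 minus Δ4 by edgeR was 5.27 for RPL27A and 3.33 for RPL7B, and it was -2.49 for RPL6B and -2.20 for RPL11A.

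Reads with Us outside the tagged window were more frequent in Pub1 than in dPup2. Reads with 1 to 3 Us made up at least 6.42% of member reads in each Pub1 library, where the highest dPup2 library had 3.85%, but C-Swat reached 9.004%, so the groups overlap in that control. For 14 or 15 Us the lowest Pub1 library had 0.846% and the highest dPup2 library 0.0995% (C-Swat 0.191%), and for 16 Us these were 13.02% and 9.70% (C-Swat 11.1%).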

How the results depend on the processing

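Of 179 alternatives to 39 counts and tests other than leaving out a library, 137 stayed within 1.5 times the count reported, as did 176 of 218 fits without 1 library. With 4 to 16 Us counted as tagged, no member was called in Nsr1, Rie1, Slf1, Scp160, Bfr1, Nab6, Puf3, Puf5, Yll032c, Pbp2, Ngr1, Tis11 or Puf5_ΔRBD (0 each), 1 was in each of Mrn1, Puf5_T3 and Mrn1_ΔRBD, 3 in each of Puf4 and Puf4_ΔRBD, 36 were lower in Pub1_ΔT1 and 26 differed between Pub1_Δ2 and Pub1_Δ4. Without a filter on low counts the members were 35 in Scp160, 27 in Bfr1, 19 in Pbp2, 5 in Ngr1, 0 in Tis11, 5 in Puf5_ΔRBD and 22 in Puf5_T3. By DESeq2 they were 6 in Scp160, 4 in Bfr1, 10 in Puf3, 25 in Puf4, 0 in Yll032c and 0 in Tis11, and for levels 10 in Pub1, 16 in Nsr1 and 9 in Pub1_Δ2. With Puf3-dPup2 controls alone, Puf3 had 16 and Yll032c 2. Scaling levels by library totals alone gave 10 in Pub1, 8 in Pub1_Δ2 and 11 in Pub1_Δ4. The cause was not tested.

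With the replicate block the level count of Pub1_Δ2 was 3 in place of 5. Share counts with it were 52 in Nsr1, 49 in Sro9 against Pub1, 45 lower in Pub1_Δ2, 53 in Pub1_ΔIDR_1 and 51 in Trc6. Same-numbered libraries did not all deviate together in these strains other than Nsr1 (r -0.131 to 0.214), so there the libraries share only a number.

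Leaving out 1 library gave 53 to 53 members in Pub1, 48 to 52 in Sro9, 49 to 50 in Nsr1, 26 to 49 in Rie1, 13 to 31 in Slf1, 4 to 15 in Scp160, 2 to 8 in Bfr1, 19 to 24 in Nab6, 23 to 30 in Mrn1, 16 to 27 in Puf3, 23 to 40 in Puf4, 11 to 15 in Puf5, 0 to 0 in Yll032c, 5 to 7 in Pbp2, 0 to 1 in Ngr1, 0 to 1 in Tis11 and 0 to 0 in Gbp2. Against Pub1 it gave 27 to 52 in Sro9, 52 to 53 in Nsr1, 48 to 50 in Pub1_Δ2, 46 to 51 in Pub1_Δ4, 52 to 53 in Pub1_ΔIDR_1, 53 to 53 in Pub1_ΔIDR_2, 50 to 52 in Pub1_ΔIDR_3, 12 to 28 in Pub1_ΔT1, 52 to 53 in Trc6 and 53 to 53 in Trc9. Between Pub1_Δ2 and Pub1_Δ4 it gave 39 to 43. The ranges were 19 to 33 in Puf4_ΔRBD, 4 to 10 in Puf5_ΔRBD, 22 to 35 in Puf5_T3 and 7 to 18 in Mrn1_ΔRBD, and for levels 1 to 8 in Pub1, 0 to 0 in Sro9, 2 to 10 in Nsr1, 0 to 7 in Pub1_Δ2, 1 to 12 in Pub1_Δ4 and 3 to 5 in Pub1_ΔIDR_2.

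Of 2596 alternative values for named members, 2477 kept the call, 105 lost it and 14 changed sign, these 14 with 4 to 16 Us counted as tagged. The log2 values were then -0.050 for RPL6A in Scp160, -0.0655 for RPL15A and -0.32 for RPL21B in Bfr1, -0.12 for RPL18B and -0.30 for RPL8A in Puf3, -0.027 for RPL12A in Yll032c, -0.12 for RPL7A in Ngr1, -0.11 for RPL30 in Tis11, -0.070 for RPL2A in Pub1_Δ2, 0.13 for RPL27A in Pub1_ΔIDR_1, -0.059 for RPL27B in Pub1_ΔT1, and 0.17 for RPL26B, 0.48 for RPL19B and 0.25 for RPL8A in Puf5_ΔRBD. Depth was low for RPL15B, with as few as 25 reads in a Pub1 library.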

Other observations

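Some member shares were not given above. RPL8A, the copy that Pub1 tagged less, was the most tagged member in the intact fusion of Nam7 (1.45% to 2.34%, n = 3) and in the truncation Puf3_T5 (1.67% to 3.55%, n = 3). RPL16A, whose share was 1.53% to 2.09% in intact Puf4, had 6.55% and 6.68% in the libraries labelled Puf4_ΔIDR and 4.21% to 6.80% in Puf4_T3. In Pub1_T2 libraries of construct Trc6, RPL7A stood highest with 14.6% and 15.5%, against a median of 2.18% over the members. None of these differences was tested.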
